A study of Mus musculus with 2 samples.

Results

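The genes of epidermal ceramide and barrier lipid synthesis were described here as 42 named genes, of 44166 listed in the deposited table, in whole skin of 3-day-old C57BL/6 mice. Members were taken by symbol, each matched exactly 1 row, and all 42 reached an FPKM of 1 (fragments per kilobase of transcript, relative to the depth of the library) in at least 1 library. The skin labelled KO had the genotype RNF31fl/fl-K14-cre, in which the floxed gene of the linear ubiquitin ligase HOIP meets a Cre recombinase driven by the keratin 14 promoter, active in basal keratinocytes and not in dermal cells. The skin labelled WT was wildtype, and its labels do not say whether it carried floxed alleles or Cre. Each genotype was 1 library, and the number of animals in it is not stated.

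Depth was 20511407 reads for the library labelled KO (93.6% aligned) and 19619928 for the library labelled WT (92.6% aligned). With no replicates, every difference is between 2 libraries, has no replicate check and no test, and is called higher or lower by size only. The targeted gene Rnf31 was at 5.4 FPKM in the library labelled KO and 3.95 in the library labelled WT, so its level did not follow the label, and the labels are written as such throughout. That level cannot check the labels either way. Whole skin includes dermal cells, and the position of the floxed part of the gene is not given. Keratinocyte markers of the basal, spinous and granular layers were present in both libraries.

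The outer skin barrier is a stack of lipid sheets between dead corneocytes, made of ceramides, cholesterol and free fatty acids. Keratinocytes lengthen fatty acids to very long chains, join them to a sphingoid base by ceramide synthases, and cap the chain end with linoleate to form acylceramide, a lipid particular to the epidermis. Ceramides are stored as glucosylceramide and sphingomyelin in lamellar bodies, secreted from granular cells, and set free again outside the cell. Lipoxygenases then oxidise the linoleate, so that part of the lipid can be bound to the protein envelope of the corneocyte. In humans, loss of many of these enzymes gives ichthyosis, a scaling disorder of the skin.

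Promoter sequence is shown for the 4 members with the largest log2 ratios and for the barrier synthesis gene with the lowest ratio, Elovl6, so that start regions of higher genes can be set beside that of a synthesis gene with a ratio under 1. Letters are the strand of the gene, taken from RefSeq on GRCm38.p6, within 250 bases before the RefSeq start and outside the gene as GENCODE release M21 places it. Capitals mark matches on either strand to any of 5 motifs. The motif of the AP-1 factors was searched as TGACTCA, and the binding motif of grainyhead factors was searched as AACNGGTT. The E-box was searched for with the letters CACGTG, the GC box was searched for with GGGCGG, and the TATA box by its usual spelling of TATAAA. The regions are chr11:69156822-69156988 (plus strand) for Alox12b, chr12:108702316-108702556 (minus strand) for Degs2, chr10:127898285-127898517 (plus strand) for Sdr9c7, chr9:83806306-83806555 (minus strand) for Elovl4 and chr3:129532136-129532354 (plus strand) for Elovl6.
Alox12b: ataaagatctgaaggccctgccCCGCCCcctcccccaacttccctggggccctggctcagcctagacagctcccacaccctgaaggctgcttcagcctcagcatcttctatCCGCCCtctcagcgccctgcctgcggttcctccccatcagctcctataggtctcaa
Degs2: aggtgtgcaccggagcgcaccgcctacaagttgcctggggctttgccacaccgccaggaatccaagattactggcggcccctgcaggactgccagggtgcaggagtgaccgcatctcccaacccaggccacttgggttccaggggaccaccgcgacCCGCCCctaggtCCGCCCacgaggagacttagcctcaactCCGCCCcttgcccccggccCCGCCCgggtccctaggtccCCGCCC
Sdr9c7: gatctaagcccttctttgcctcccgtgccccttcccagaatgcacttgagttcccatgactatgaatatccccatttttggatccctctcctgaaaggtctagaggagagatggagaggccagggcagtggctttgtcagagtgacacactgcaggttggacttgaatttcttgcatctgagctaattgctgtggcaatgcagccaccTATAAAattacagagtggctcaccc
Elovl4: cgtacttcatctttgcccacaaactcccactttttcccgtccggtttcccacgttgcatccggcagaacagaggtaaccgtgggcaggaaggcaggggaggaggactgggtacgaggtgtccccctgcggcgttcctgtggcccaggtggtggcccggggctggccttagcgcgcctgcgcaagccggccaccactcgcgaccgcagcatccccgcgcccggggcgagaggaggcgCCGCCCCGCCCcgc
Elovl6: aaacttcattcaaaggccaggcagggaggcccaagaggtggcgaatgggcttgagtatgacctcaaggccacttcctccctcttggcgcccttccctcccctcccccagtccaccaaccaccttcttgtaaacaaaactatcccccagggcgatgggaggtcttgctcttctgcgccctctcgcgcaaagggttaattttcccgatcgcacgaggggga

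The regions of Alox12b, Degs2 and Elovl4 hold GC boxes in reverse orientation, 2 in Alox12b, 5 in Degs2 and 2 overlapping ones in Elovl4. Sdr9c7 holds a TATA box that begins 42 bases before the RefSeq start, and Elovl6 holds none of the 5 motifs. Of the 42 members, 38 had promoters in the RefSeq table, with 51 windows of 250 bases. A GC box was in 26 of these windows (51.0%), against 32.7% of the windows of all genes, and in at least 1 window of 8 of the 13 members with a promoter that passed the 2-fold rule upwards and of 15 of the other 25. The AP-1 motif was in 8 of the 51 windows (15.7%), against 4.46% of all windows. It was found in 1 of the 13 higher members (Sult2b1) and in 6 of the other 25. The TATA box was in 1 of 51 windows (1.96%), against 12.4% of all windows. The E-box was in 4 of 51 (7.84%, against 6.02% of all) and the grainyhead motif in 1 of 51 (1.96%, against 1.79%). A match is a string of letters and not a measured binding site.

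A minority of the barrier lipid genes passed a 2-fold rule, all of them upwards in the library labelled KO and none of them from hydrolysis. On the scale of log2((FPKM + 1) in KO over (FPKM + 1) in WT), 15 of 42 members (35.7%) were at least 2-fold higher and 0 were at least 2-fold lower. Of all 14541 genes at an FPKM of at least 1, 7.59% were higher and 4.09% lower, and these shares were 6.55% and 5.48% when libraries were scaled without the 50 most abundant genes. The member median was 0.66, beside -0.08 for all genes, and 37 of the 42 lay above that median of all genes. Among genes reaching an FPKM of 10, where the pseudocount matters less, 14 of 33 members were higher and 0 lower, beside 8.07% and 3.49% of 7545 genes. Exact 95% intervals on the ratio, from fragments estimated from FPKM, lay above 1 for 31 members, below 1 for 6 and across 1 for 5. For all 14541 genes these counts were 4359 above 1, 6056 below 1 and 4126 across 1, so most genes had intervals that left out 1. Such intervals reflect counting error only, and differences between animals are not in them. In whole skin, fewer cells of a type and less RNA per cell cannot be told apart.

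**Figure D1:**
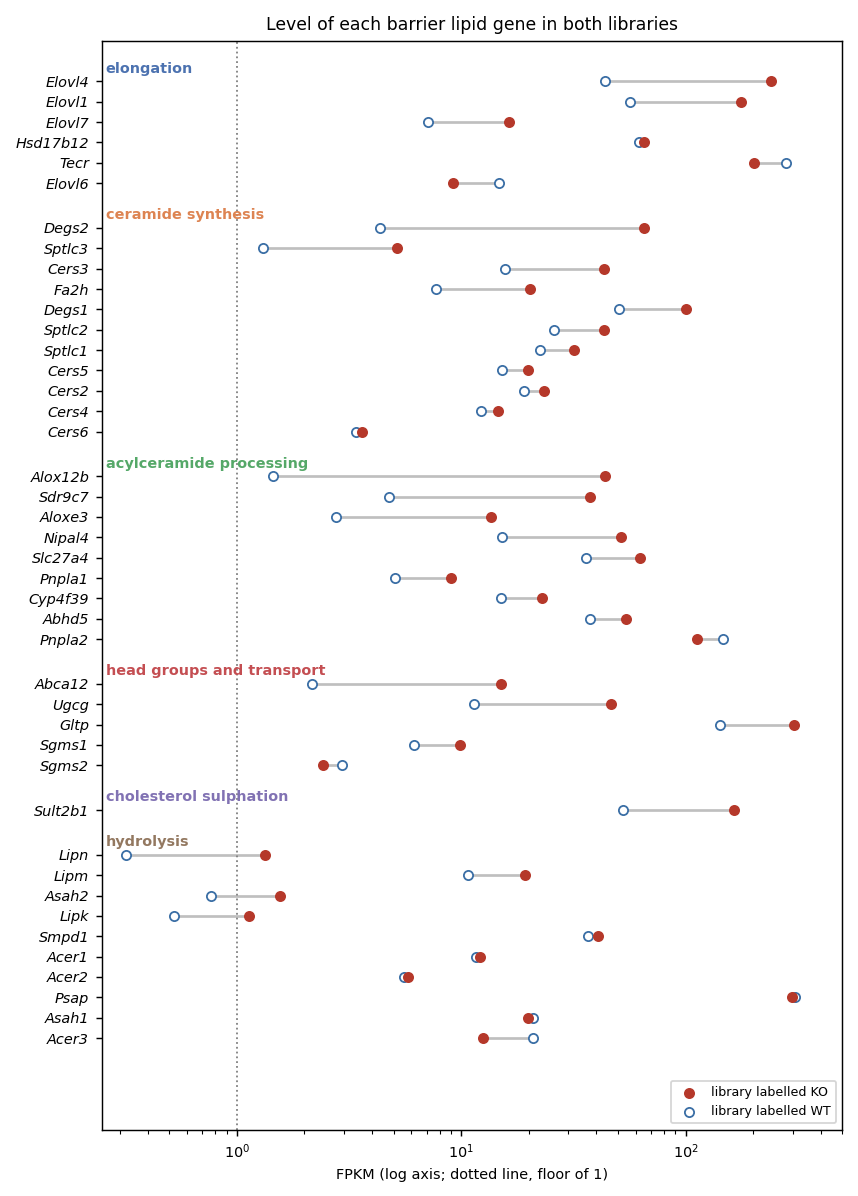
FPKM on a log axis for the 42 members, ordered by step, with filled points for the library labelled KO and open points for the library labelled WT (1 library each). The longest lines belong to Alox12b (43.6 and 1.45 FPKM) and Degs2 (65.3 and 4.36 FPKM), whereas Psap, Smpd1, Asah1, Acer1 and Acer2 of hydrolysis show close points.

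In the elongation of fatty acids, 3 of the 4 elongases were higher, whereas the elongase Elovl6 and the 2 reductases were inside the rule. Elovl4, which makes the ultra-long chains of acylceramide, stood at 241 FPKM in the library labelled KO, against 43.8 in the library labelled WT, a ratio of 5.49 (95% counting interval 5.24 to 5.76). Its level was above that of 97.1% of genes in the library labelled KO and of 84.8% in the library labelled WT. Elovl1, an elongase of saturated very long chains, was at 177 FPKM in the library labelled KO and 56.7 in the library labelled WT (ratio 3.11, 2.94 to 3.3). Elovl7, another elongase of saturated chains, was at 16.3 and 7.12 FPKM in the libraries labelled KO and WT (ratio 2.28, 2.04 to 2.56), and its log2 ratio of 1.09 was close to the 2-fold rule. Of the 6 elongation genes 0 were lower.

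Elovl6, which lengthens palmitate and so acts before the others, was at 9.19 FPKM in the library labelled KO and 14.8 in the library labelled WT (ratio 0.621, 0.569 to 0.676). Every round of elongation also needs Hsd17b12, the ketoacyl reductase, which was at 65.1 and 62.2 FPKM in the libraries labelled KO and WT, and Tecr, the enoyl reductase, at 202 and 281 FPKM. Elovl4 and Elovl1 together with Elovl7 made up most of the elongase transcripts in both libraries, and Elovl4 took 54.4% of the summed FPKM of the 4 elongases in the library labelled KO and 35.8% in the library labelled WT. The share of Elovl6 was 2.08% in the library labelled KO and 12.1% in the library labelled WT.

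Ceramide synthesis begins with serine palmitoyltransferase, in which Sptlc1 pairs with the catalytic subunit Sptlc2 or Sptlc3. Sptlc3 was at 5.18 FPKM in the library labelled KO and 1.3 in the library labelled WT (ratio 3.98, 2.95 to 5.41), from about 230 and 55.7 estimated fragments. Sptlc1 (31.9 and 22.4 FPKM in the libraries labelled KO and WT) and Sptlc2 (43.3 and 25.9 FPKM) were inside the rule with ratios of 1.43 and 1.67. Sptlc3 remained the rarest of the 3, with 6.45% of their summed FPKM in the library labelled KO and 2.63% in the library labelled WT.

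The dihydroceramide desaturase genes were the most unequal pair of this step. Degs2, whose product also hydroxylates the sphingoid base to give phytoceramide, was at 65.3 FPKM in the library labelled KO, against 4.36 in the library labelled WT, a ratio of 15 (12.4 to 18.2). Degs1, the general desaturase, was at 101 and 50.4 FPKM in the libraries labelled KO and WT, a ratio of 1.99 (1.88 to 2.12), and at a log2 ratio of 0.98 it stayed just inside the rule. Degs2 made up 39.4% of the FPKM of the pair in the library labelled KO and 7.96% in the library labelled WT. Degs2 (ENSMUSG00000021263) lies on chromosome 12, 108678711 to 108702315 in GRCm38. Its exons share 278 bases with Evl on the opposite strand, which was at 25.9 FPKM in the library labelled KO and 44.4 in the library labelled WT, the opposite direction.

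Among the ceramide synthases, which differ in the chain length they accept, only Cers3 of the 5 members passed the 2-fold rule. Cers3, the synthase of ultra-long chain ceramides in the epidermis, was at 43.3 FPKM in the library labelled KO and 15.7 in the library labelled WT (ratio 2.76, 2.54 to 3). Cers2, Cers4, Cers5 and Cers6 were inside the rule, with ratios of 1.22, 1.19, 1.31 and 1.07, and the interval of Cers6 (0.923 to 1.23) included 1. Cers3 held 41.4% of the summed FPKM of the 5 synthases in the library labelled KO, where it was the most abundant, and 24% in the library labelled WT, where Cers2 held 29.1%. Fa2h, the alpha-hydroxylase of the fatty acid, was at 20.3 and 7.7 FPKM in the libraries labelled KO and WT (ratio 2.63, 2.3 to 3.02). In all, 4 of 11 ceramide synthesis genes passed the rule upwards and 0 downwards, and their median log2 ratio was 0.72.

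**Figure D2:**
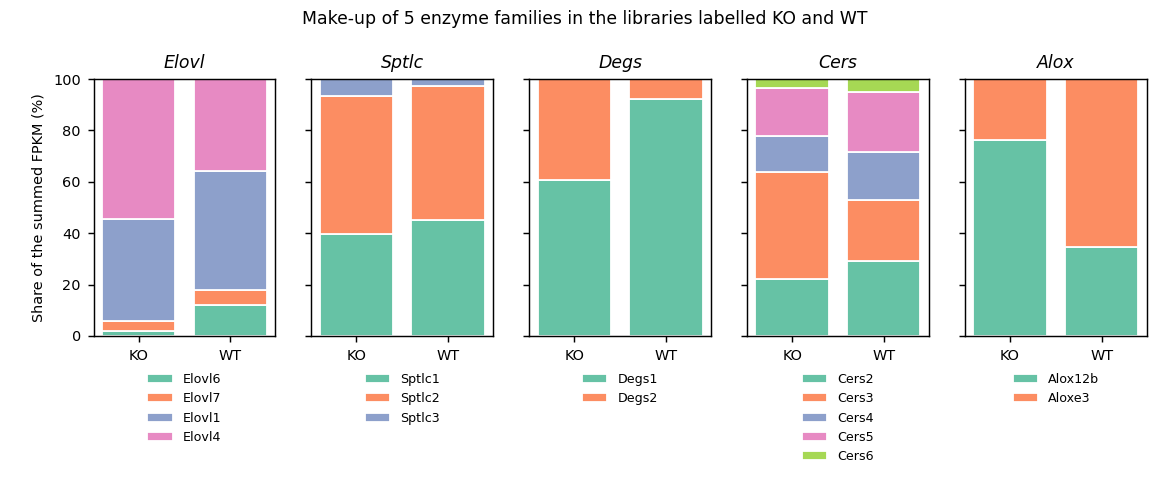
Stacked bars give the share in percent of the summed FPKM of each enzyme family held by each member, with the library labelled KO left and the library labelled WT right in each panel (1 library each). Degs2 holds 39.4% against 7.96%, Cers3 41.4% against 24%, Elovl4 54.4% against 35.8% and Alox12b 76.2% against 34.4%.

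Acylceramide processing held the largest difference of any member. Alox12b, the lipoxygenase that oxidises the linoleate of acylceramide, was at 43.6 FPKM in the library labelled KO and 1.45 in the library labelled WT. The ratio was 30.2 (23.2 to 40.7) and rests on about 54.5 estimated fragments in the library labelled WT. Its log2 ratio of 4.19 was above that of 99.5% of genes. Aloxe3, the isomerase that takes up the product of Alox12b, was at 13.6 FPKM in the library labelled KO and 2.75 in the library labelled WT (ratio 4.94, 4.24 to 5.77). Sdr9c7, a dehydrogenase acting on the oxidised linoleate next, was at 37.5 and 4.78 FPKM in the libraries labelled KO and WT (ratio 7.85, 6.82 to 9.12).

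Alox12b and Aloxe3 are neighbours on chromosome 11 (69156989 to 69169792, and 69125896 to 69149115 in GRCm38), 7874 bases apart. The summed FPKM of the pair was 57.2 in the library labelled KO and 4.2 in the library labelled WT, and Alox12b made up 76.2% of it in the library labelled KO and 34.4% in the library labelled WT. The pair thus had a different leading member in each library.

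Within this step, the genes that act before oxidation differed less than those of the oxidation, a split that was drawn after the values were seen. Elovl4 and Cers3, which also serve the making of acylceramide, are counted in other steps and are outside this comparison. Cyp4f39, the mouse counterpart of the human omega-hydroxylase CYP4F22, was at 23 FPKM in the library labelled KO and 15.1 in the library labelled WT (ratio 1.52, 1.37 to 1.68). Slc27a4, an acyl-CoA synthetase for very long chains, was at 62.7 and 35.8 FPKM in the libraries labelled KO and WT (ratio 1.75). Pnpla1, the transacylase that moves linoleate onto the ceramide, was at 8.98 and 5.06 FPKM in the libraries labelled KO and WT (ratio 1.78, 1.56 to 2.03). Abhd5, its coactivator, was at 54.2 FPKM in the library labelled KO and 37.3 in the library labelled WT (ratio 1.45). Pnpla2, the general triglyceride lipase that Abhd5 also activates, was at 113 FPKM in the library labelled KO and 146 in the library labelled WT (ratio 0.769, 0.74 to 0.799). Nipal4, a membrane protein whose loss gives ichthyosis in humans, was higher, with 51.5 FPKM in the library labelled KO and 15.2 in the library labelled WT (ratio 3.4, 3.14 to 3.68). Of the 9 genes of the step 4 were higher, 5 were inside the rule and 0 were lower.

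Of the 5 genes of head groups and transport, the 3 that act on glucosylceramide or lipid transport were higher. Abca12, the transporter that loads lipid into lamellar bodies, was at 15 FPKM in the library labelled KO and 2.16 in the library labelled WT (ratio 6.98, 6.2 to 7.9). Ugcg, the glucosylceramide synthase, was at 46.7 and 11.4 FPKM in the libraries labelled KO and WT (ratio 4.09, 3.77 to 4.44). Gltp, a glycolipid transfer protein and the most abundant member in the library labelled KO, was at 303 FPKM there and 142 in the library labelled WT (ratio 2.13, 2.05 to 2.21). Elovl7 and Gltp were the members that dropped inside the rule when libraries were scaled without the 50 most abundant genes.

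The remaining 2, for the other head group, were inside the rule. The sphingomyelin synthase Sgms1 was at 9.87 FPKM in the library labelled KO and 6.14 in the library labelled WT (ratio 1.61), and Sgms2 was at 2.42 and 2.95 FPKM in the libraries labelled KO and WT (ratio 0.822, 0.687 to 0.987). Sult2b1, which makes cholesterol sulphate, another lipid of the horny layer, was at 165 FPKM in the library labelled KO and 52.7 in the library labelled WT (ratio 3.12, 2.95 to 3.31). Its exons share 243 bases with Lmtk3 on the opposite strand, at 4.16 and 2.58 FPKM in the libraries labelled KO and WT.

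**Figure D3:**
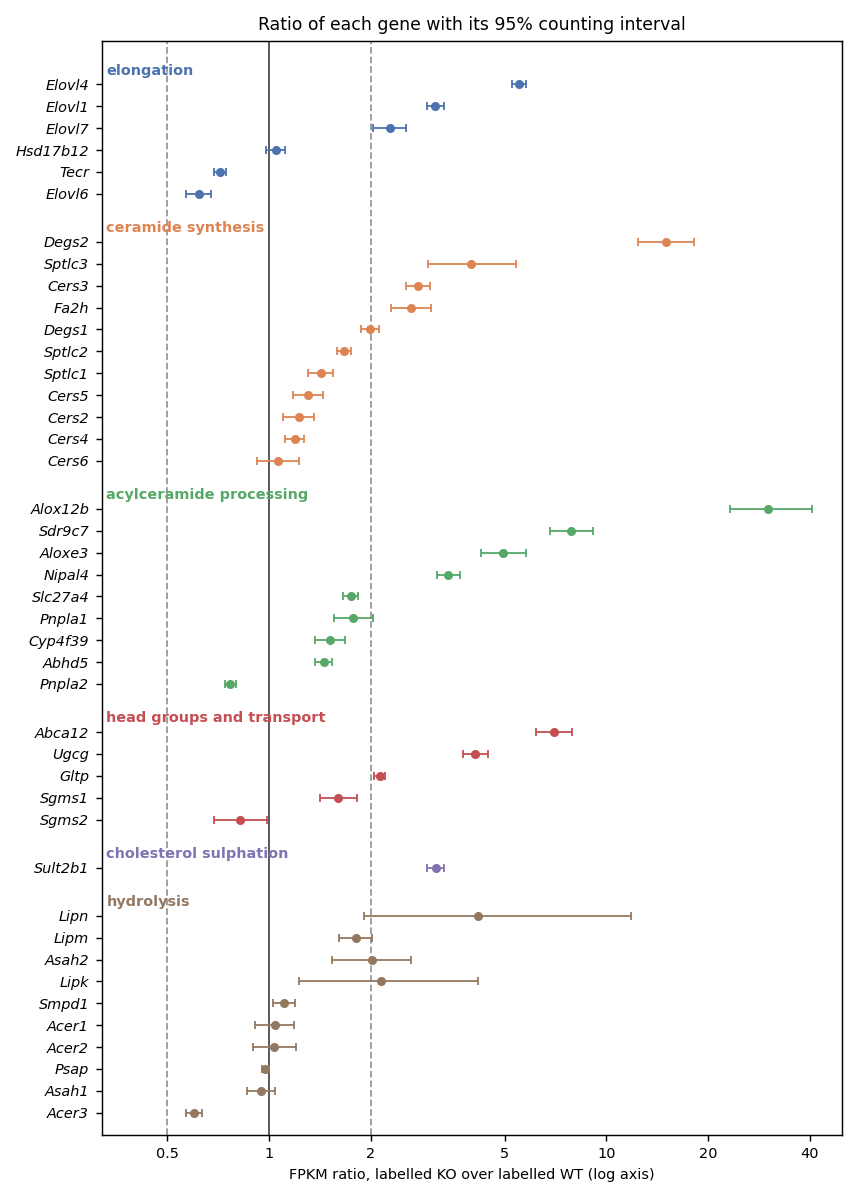
FPKM ratio of the library labelled KO over the library labelled WT on a log axis for each member, without pseudocount, with 95% counting intervals (bars) and dashed lines at 2-fold. Alox12b (30.2) and Degs2 (15) lie farthest right, and the wide bar of Lipn (1.91 to 11.9) belongs to the member with the fewest fragments.

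Hydrolysis was the step in which no member passed the rule, which uses a pseudocount of 1. The step covers members only. Among hydrolases that are not members, Smpd3 and Gba2, given below, were higher, and others were inside the rule. Of its 10 genes 0 were higher and 0 lower, the median log2 ratio was 0.10, and the summed FPKM was 413 in the library labelled KO and 415 in the library labelled WT. By FPKM ratio without pseudocount, Asah2 (2.02), Lipk (2.15) and Lipn (4.17) were past 2-fold, all at low FPKM. Psap, the precursor of the saposins that help lysosomal enzymes reach their lipids, was at 299 and 307 FPKM in the libraries labelled KO and WT (ratio 0.975, 0.951 to 0.999). Acid sphingomyelinase, Smpd1, was at 40.6 FPKM in the library labelled KO and 36.7 in the library labelled WT (ratio 1.11). Acid ceramidase, Asah1, was at 19.7 FPKM in the library labelled KO and 20.8 in the library labelled WT (ratio 0.947, 0.861 to 1.04).

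The alkaline ceramidases release sphingosine from ceramide, and all 3 were inside the rule. Acer1, the epidermal form, was at 12.1 FPKM in the library labelled KO and 11.6 in the library labelled WT, with a ratio of 1.04 (0.912 to 1.19). Acer2 had the same ratio of 1.04 (0.897 to 1.2). Acer3 was at 12.5 FPKM in the library labelled KO and 20.9 in the library labelled WT, a ratio of 0.6 (0.569 to 0.633), and had the lowest log2 ratio of the members (-0.69). The neutral ceramidase Asah2 was at 1.55 and 0.768 FPKM in the libraries labelled KO and WT (ratio 2.02, 1.54 to 2.64), a level at which the pseudocount shrinks the log2 ratio to 0.53.

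The acid lipases of the late epidermis are neighbours on chromosome 19. Lipm was at 19.3 FPKM in the library labelled KO and 10.7 in the library labelled WT (ratio 1.81, 1.62 to 2.02). Its exons share 1219 bases with Ankrd22 on the opposite strand, which was at 19.4 and 7.02 FPKM in the libraries labelled KO and WT, so that without strand in the counting the 2 cannot be told apart. Lipk (1.13 and 0.526 FPKM in the libraries labelled KO and WT) and Lipn (1.34 and 0.321 FPKM) were near the floor. The ratio of Lipn was 4.17 (1.91 to 11.9), from about 32.3 and 7.47 estimated fragments in the libraries labelled KO and WT, and it was inside the rule only through the pseudocount.

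Genes whose loss causes autosomal recessive congenital ichthyosis in humans were 10 of the members, a subset drawn up after the values were seen. Of these, 7 were at least 2-fold higher and 0 lower, with a median log2 ratio of 1.66, beside 8 of 32 and a median of 0.49 for the remaining members. Of all genes, 7.59% were higher and 4.09% lower. Because the subset was drawn from values already seen, these counts are description only. The 7 were Alox12b, Aloxe3, Sdr9c7, Abca12, Nipal4, Sult2b1 and Cers3, and the other 3 were Cyp4f39, Pnpla1 and Lipn.

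**Figure D4:**
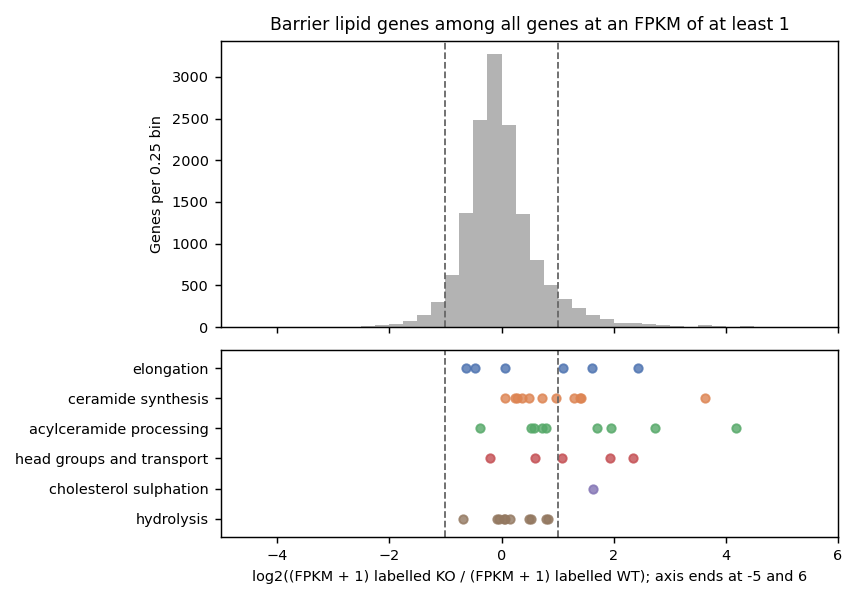
The upper panel is a histogram of the log2 ratio for all 14541 genes at an FPKM of at least 1 (bins of 0.25, with 30 genes outside the plotted range), and the lower panel shows the 42 members as points by step. Dashed lines mark the 2-fold rule, which 15 members pass to the right and 0 to the left.

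Other genes of sphingolipid, fatty acid and barrier lipid metabolism were less one-sided than the members. Of 69 listed, 68 were matched and 64 reached the floor, of which 10 (15.6%) were higher, 3 (4.69%) lower and 51 inside the rule, with a median log2 ratio of -0.04. With the scaling that leaves out the 50 most abundant genes 8 were higher and 4 lower, beside 6.55% and 5.48% of all genes. Smpd3, a neutral sphingomyelinase, was at 33 FPKM in the library labelled KO and 4.09 in the library labelled WT (ratio 8.07, 7.19 to 9.08). Pla2g2f, a secreted phospholipase of the epidermis, was at 152 and 31.6 FPKM in the libraries labelled KO and WT (ratio 4.8). Gba2, a nonlysosomal glucosylceramidase, was at 17.7 FPKM in the library labelled KO and 4.93 in the library labelled WT (ratio 3.6).

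Also higher were Sgpp2, Casp14, Tgm1, Tgm5, Ephx3 and Gm2a. Ephx3, an epoxide hydrolase that follows the lipoxygenases, was at 22.3 FPKM in the library labelled KO and 9.8 in the library labelled WT (ratio 2.28). Tgm1, the transglutaminase of the cornified envelope, was at 118 and 46.4 FPKM in the libraries labelled KO and WT (ratio 2.55). Sgpp2, a sphingosine phosphate phosphatase, was at 3.47 FPKM in the library labelled KO and 0.0919 in the library labelled WT, about 5.7 estimated fragments.

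Lower were Sptssb, Scd2 and Slc27a6, or 4.69% of the 64 listed genes that reached the floor, near the 4.09% of all genes. Sptssb, a small subunit of serine palmitoyltransferase, was at 0.655 FPKM in the library labelled KO and 4.48 in the library labelled WT (ratio 0.146, 0.0855 to 0.239). Scd2, a stearoyl-CoA desaturase, was at 37.1 and 81.9 FPKM in the libraries labelled KO and WT (ratio 0.453). Slc27a6, a fatty acid transport protein, was at 6.01 FPKM in the library labelled KO and 13.6 in the library labelled WT (ratio 0.441).

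Markers of several cell types moved with the barrier lipid genes, and their part in these differences was not tested. The counts in this and the other marker lists stand beside 7.59% of all genes higher and 4.09% lower. The 9 granular layer genes included 5 higher and 1 lower gene, and had a median log2 ratio of 1.33 and a summed FPKM of 2073 in the library labelled KO and 1108 in the library labelled WT. Tgm1 and Casp14 belong to that list as well as to the wider lipid list. The 7 basal keratinocyte genes (median 1.55) had 5 higher and 1 lower, and the 6 spinous genes (median 0.29) had 2 higher and 1 lower. The 2 higher spinous genes were Krtdap, at 7013 FPKM in the library labelled KO and 1121 in the library labelled WT, and Sbsn, at 1826 and 340.3 FPKM in the libraries labelled KO and WT. The lower spinous gene was the keratin Krt10, at 188 FPKM in the library labelled KO and 678 in the library labelled WT.

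Sebaceous glands also make very long chain lipids, and 5 of 10 of their markers were higher and 0 lower (median 0.92), with sums of 264 FPKM in the library labelled KO and 205 in the library labelled WT. Adipocytes also express Pnpla2 and Abhd5, and adipocyte markers had 0 higher and 2 lower of 8 (median -0.61), with sums of 1427 FPKM in the library labelled KO and 2029 in the library labelled WT. Macrophages are rich in lysosomal genes such as Psap and Asah1, and macrophage and monocyte markers had 8 higher and 0 lower of 10, with sums of 466 FPKM in the library labelled KO and 180 in the library labelled WT. Of 8 neutrophil genes 3 reached the floor, with sums of 40.3 and 4 FPKM in the libraries labelled KO and WT, and the table gives 0 for Retnlg, Ngp, Csf3r and Ly6g in the skin labelled WT, and for Ly6g in the skin labelled KO too.

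The remaining lists had medians below the member median of 0.66. The medians were -0.30 for 6 fibroblast, -0.01 for 4 endothelial and 0.33 for 5 skeletal muscle genes. Of the muscle genes 1 (Myh3) was higher and 0 lower, and of the fibroblast and endothelial genes 0 were higher and 0 lower. Hair follicle markers had 0 higher and 5 lower of 7 matched genes (median -2.03), and melanocyte markers 0 higher and 5 lower of 5 (median -1.98).

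**Figure D5:**
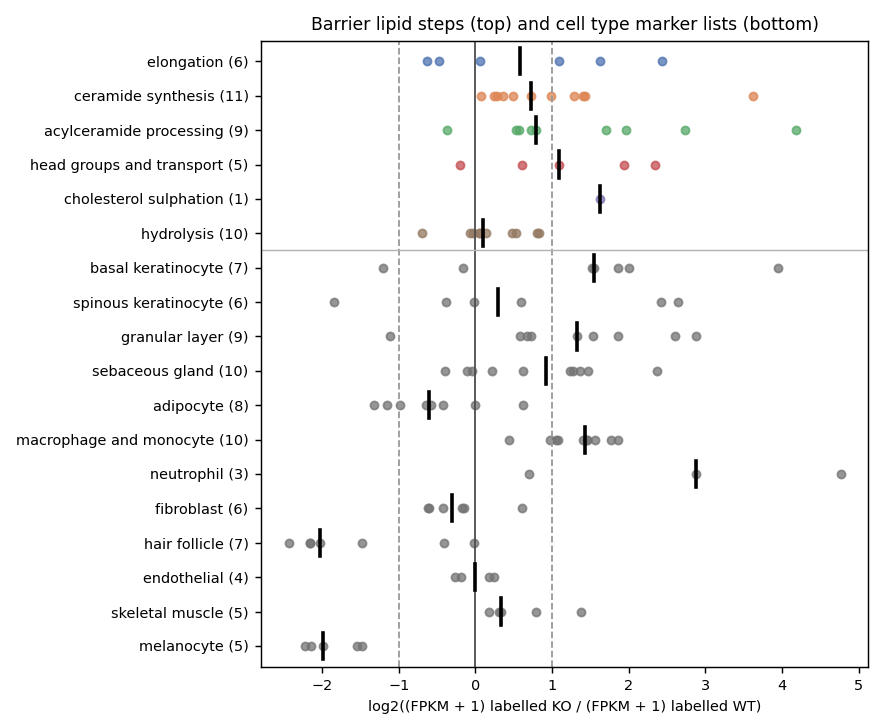
Points are the log2 ratios of single genes at an FPKM of at least 1, black bars their medians, dashed lines the 2-fold rule, with the number of genes in brackets. The medians of the first 5 steps lie between 0.58 and 1.62 and that of hydrolysis at 0.10, beside 1.33 for granular layer and -0.61 for adipocyte markers.

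In the authors' deposited table, 2 of the 42 members were called significant, beside 0.616% of the 15589 genes compared there. These were Alox12b and Abca12, at q-values of 0.0120 and 0.0200 in the authors' deposited table, and Sdr9c7 had a q-value of 0.0530 there. That comparison sets 1 library against 1 library and says nothing of the spread between animals.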

How the data were processed

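RNA of skin from 1 library per genotype was made into directional libraries and sequenced, per the labels' protocols, and groups follow the genotype labels. Cufflinks 2.2.1, HISAT2 2.0.4 and cutadapt 1.9.1 appear as tools, and GRCm38 as build, per the submitters' processing notes. The annotation release, the use of strand and the treatment of shared reads are unstated. The authors deposited FPKM per gene and library, with the column set of Cuffdiff per the file headers, and the p-value and q-value of their own comparison. A deposited sheet gives read counts and the fraction of reads aligned per library.

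The measure is log2((FPKM + 1) KO / (FPKM + 1) WT) for genes at 1 FPKM or more in at least 1 library, and higher or lower means 2-fold. The pseudocount understates differences of low genes. Ratios beside it are of FPKM without pseudocount. In single-transcript genes of 3000 bases or longer, low FPKM values fell on steps, within 0.25 of a whole step for 80.5% of 338 values (KO) and 85.0% of 340 (WT), where 50% would by chance. Fragments were estimated from that step and the longest transcript, and gave exact binomial (Clopper-Pearson) 95% intervals, which are too narrow where shorter transcripts dominate or reads are duplicates. Scripts (Python 3.11.15, scipy 1.17.1) were tested on simulated data. Positions and exon overlaps are from GENCODE M21, promoters from RefSeq.

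Members and lists were chosen with earlier results of these data known. All members are given, and of the wider lipid list those past the 2-fold rule and up to 4 with the largest absolute log2 ratio. A result that this rule takes from the wider list is not reported here. A few genes are named beyond this rule after their values were seen, namely overlap partners, neighbours and single markers. The alternatives were other pseudocounts, floors, scalings and fold rules.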

Additional observations from a re-analysis of the deposited data

How the results depend on the processing

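Under 8 other settings of pseudocount, floor, scaling and fold rule, the number of higher members ran from 10 with a 3-fold rule to 22 with a 1.5-fold rule, and was 12 with a pseudocount of 5, where Elovl7, Fa2h and Sptlc3 dropped inside the rule. Of all genes, 3.35% were higher with the 3-fold rule, 14.3% with the 1.5-fold rule and 3.63% with a pseudocount of 5. With a pseudocount of 0.1, 16 members were higher, with Lipn of hydrolysis added, beside 10.2% of all genes. No member was lower except under the 1.5-fold rule, where 2 were (Elovl6 and Acer3), beside 13.8% of all genes. The member median was 0.81 with a pseudocount of 0.1 and 0.48 with a pseudocount of 5, since low genes shrink with the pseudocount. Scaling without the 50 most abundant genes shifted the median of all genes by -0.11 and put 36 of 42 members above the median of all genes. With that scaling 13 members were higher, beside 6.55% of all genes. Without the 11 members that share exons with another gene, an alternative chosen after seeing the data, 12 of 31 were higher, beside 7.59% of all genes. In the wider lipid list, the higher genes were 6 with a pseudocount of 5 and 5 with a 3-fold rule, beside 3.63% and 3.35% of all genes. The lower genes of that list were 5 and 1 with pseudocounts of 0.1 and 5, and 1 and 10 with 3-fold and 1.5-fold rules. Of all genes, 7.46% and 1.13% were lower with those pseudocounts, and 0.818% and 13.8% with those fold rules. Of 323 recomputed values of single genes, 80 moved by more than their counting interval and 0 of the called ones changed sign. Few estimated fragments in the library labelled WT gave Lipn, Lipk and Sgpp2 wide counting intervals. No paired analysis was possible because each genotype has 1 library.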

Other observations

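Within 100 kb of a member lay 144 other genes at an FPKM of at least 1, of which 6 (4.17%, beside 7.59% of all genes) passed the 2-fold rule upwards and 9 (6.25%, beside 4.09% of all genes) downwards. Their median log2 ratio was -0.17. Around Alox12b and Aloxe3, the clock gene Per1 was higher, with 34.9 FPKM in the library labelled KO and 12.6 in the library labelled WT. Alox8, a lipoxygenase gene of the same cluster, was at 1.47 and 0.928 FPKM in the libraries labelled KO and WT. Tmem107 in the same stretch was lower, with 6.95 FPKM in the library labelled KO and 16 in the library labelled WT.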
